A study of Komagataella pastoris with 6 samples.

Results

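The genes of DNA replication, repair and recombination were followed in a methanol-grown yeast, *Komagataella pastoris* (*Pichia pastoris*), with and without overexpression of ILV3. They were taken from the product descriptions in the deposited table. A gene was a member if its description held a term for replication, DNA polymerases, helicases, primase, repair, DNA damage, recombination, replication factors, origin recognition, ribonucleotide reductase, telomeres or topoisomerases, and held none of meio, histone or ubiquitin. This gave 76 members of 5030 genes. The rule reads the descriptions alone, though it was written with earlier results of these data known. The control was strain HTX-33, labelled WT, and the other strain was HTX33-ILV3, labelled Ilv3 overexpression. Each strain had 3 libraries, which the series design calls biological replicates. Both strains share the HTX-33 background, whose own construction the sources used here do not describe. All cultures were induced with methanol at 0.5% in a basal salt medium, and were harvested in exponential phase. The sources used here do not give the promoter of the ILV3 construct, its copy number or whether the strain is 1 clone.

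Replication starts where the origin recognition complex marks the DNA and loads a helicase. Primase and polymerase alpha then start each strand, a clamp loader places the sliding clamp, and polymerases epsilon and delta copy the strands. Repair pathways remove damaged or mispaired bases, cut out bulky lesions or rejoin broken ends, and translesion polymerases copy past damage that the main polymerases cannot read. In budding yeast many of these transcripts peak around the start of S phase. A library is a mixture of cells at every stage, so a smaller share of cells in S phase and less RNA per cell cannot be told apart in these values.

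Levels are given in TPM, a length-scaled share of the transcripts of a library, and the values sum to 1000000 in each of the 6 libraries. The column sums do not themselves show that lengths were used in the scaling, and the sequencing depth is unknown. ILV3 (PAS_chr1-4_0458) averaged 86.5 ± 6.19 TPM in control libraries and 2626 ± 58.2 TPM with overexpression (SD, n = 3), as the labels say. AOX1, the alcohol oxidase of methanol metabolism, was the most abundant transcript in all 6 libraries. Across genes, which are not independent replicates, r was 0.986 to 0.992 within a strain and 0.963 to 0.968 between strains. Control replicate 2 was the lowest of the control libraries for 65 of the 76 members, and for 66.4% of all tested genes. ILV3 replicate 3 was the lowest of its strain for 44 members, and for 50.1% of all tested genes. The members' TPM summed to 3466, 3233 and 3469 in control replicates 1 to 3 and to 3253, 3343 and 3136 in ILV3 replicates 1 to 3, so the strains overlapped.

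Most of the replication and repair transcripts did not pass the test of a difference between strains. Of the 76 members, all tested, 10 rose and 11 fell with ILV3 overexpression at an adjusted p under 0.05 (limma's moderated test, two-sided, Benjamini-Hochberg over 5025 genes), and 55 did not pass. Over all tested genes 49.3% passed, 22.1% upward and 27.2% downward. The counts of each role group below stand beside these shares, and no group was tested. The largest falls were those of DNA polymerase IV and of the catalytic subunit of polymerase zeta, and the largest rises were those of 1 Ku subunit, 1 origin recognition subunit and topoisomerase I. DNA polymerase IV was the sole member that passed with a change of at least 2-fold. The median log2 fold change was -0.03 over the members and -0.02 over all tested genes, and the median absolute change was 0.12 and 0.19. No overlap between strains was seen for 29 members, and for 57.2% of all tested genes. Without control replicate 2 the count was 9 higher and 21 lower, against 21.1% higher and 32.4% lower over all genes tested there. The 10 further members called lower in that setting had log2 fold changes of -0.26 to -0.16 and adjusted p from 0.00849 to 0.0479. The part of that library in these calls was not tested.

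**Figure D1:**
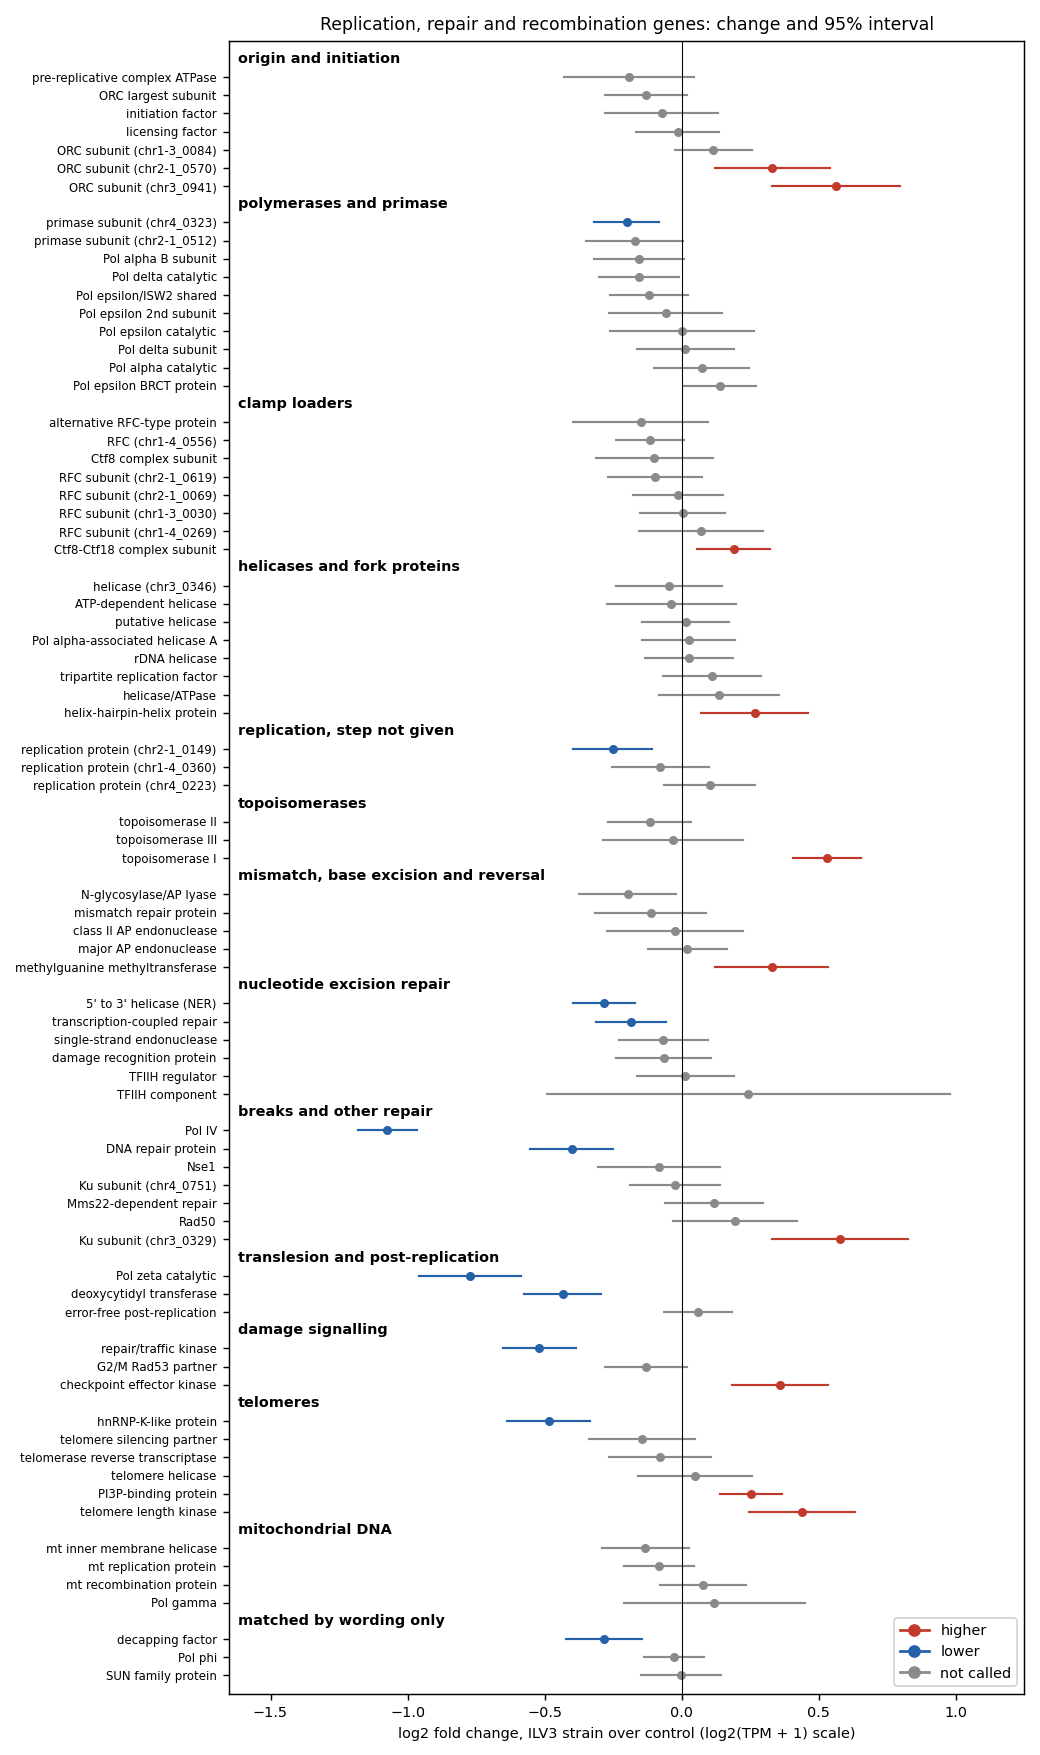
Log2 fold change of the ILV3 strain over the control for each of the 76 members, on the log2(TPM + 1) scale, with bars for the 95% interval from limma, grouped by role. Red marks the 10 members called higher, blue the 11 called lower and grey the 55 not called, which lie between -0.20 and 0.24.

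The intervals show how much change the data leave room for. Of the 55 members that were not called, 41 had a 95% interval that lay wholly within 0.3 of 0 on the log2 scale, and 54 had one within 0.5. The smallest change that was called was 0.19, and the largest that was not was 0.24. The members tended to lie at lower levels than all genes: their median level was 27.5 TPM, against 48.8 TPM over all genes. A mean under 10 TPM was seen for 8 of them, while 66 lay above 10 TPM in every library. No member was at 0 TPM in any library. The share called over all genes was larger at higher levels. Under 10 TPM 2 of 8 members were called, against 23.8% of all genes. Of the members with a mean from 10 to 30 TPM 4 of 32 were called, against 33.9% of all genes at that level. From 30 to 100 TPM 12 of 31 members were called, against 51.1% of all genes there. At 100 TPM and over 3 of 5 members were called, against 65.5% of all genes.

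**Figure D2:**
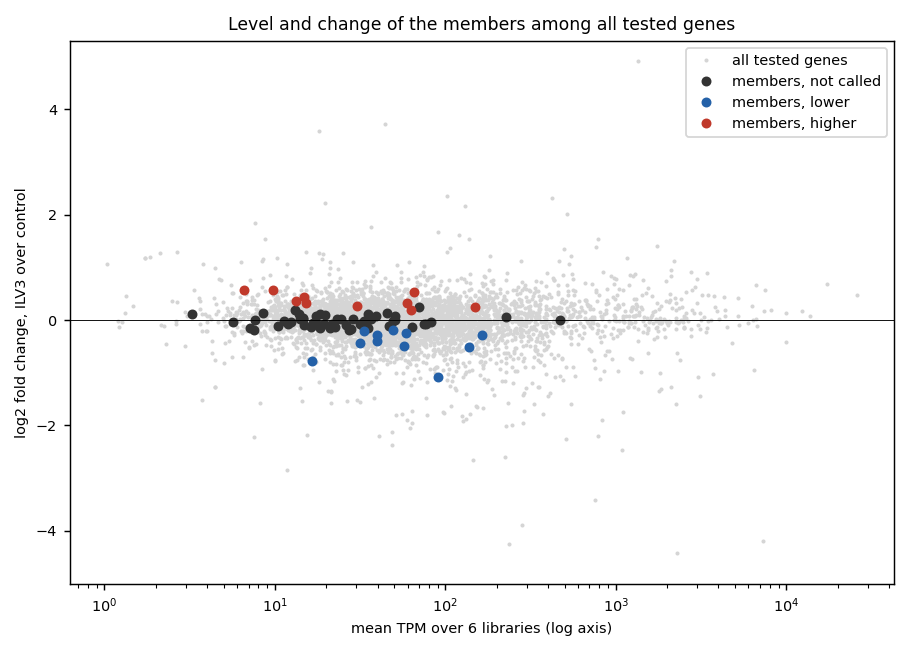
Log2 fold change (vertical) against the mean TPM of 6 libraries (horizontal, log axis) for all tested genes in light grey and for the members in dark grey, red (higher) and blue (lower). The members span 3.27 to 469.9 TPM with a median of 27.5 TPM, and their changes run from -1.07 to 0.58.

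The origin recognition complex, which marks replication origins, had 4 described subunits, and some of these passed the test while others did not. The weakest of them, PAS_chr3_0941, lay at 4.92, 5.09 and 5.42 TPM in the control libraries and at 8.34, 8.11 and 7.75 TPM in the ILV3 libraries. All ILV3 values lay above all control values, and the transcript rose with a log2 fold change of 0.56 (SE 0.10, adjusted p = 0.00171). A further subunit, PAS_chr2-1_0570, was at 13.54, 12.06 and 14.54 TPM in the control and 17.3, 18.2 and 15.7 TPM in the ILV3 strain. It rose by 0.33 on the log2 scale (SE 0.09, adjusted p = 0.0154), a call lost without ILV3 replicate 1 (adjusted p = 0.0512) or 2 (0.0621), its adjusted p in all settings running from 0.00242 to 0.0621. The largest subunit, PAS_chr4_0526, was at 23.5 ± 1.22 and 21.4 ± 0.64 TPM and did not pass (adjusted p = 0.131), though without control replicate 2 it was called lower (log2 change -0.17, adjusted p = 0.0374; range 0.0374 to 0.321). PAS_chr1-3_0084, the most abundant of the 4, was at 33.6 ± 1.75 and 36.5 ± 1.66 TPM (adjusted p = 0.159), and was called higher with quantile normalization (log2 change 0.17, adjusted p = 0.0147; range 0.0147 to 0.395) and with median-ratio scaling (0.14, adjusted p = 0.0336).

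The order of the 4 levels was the same in all 6 libraries, and each subunit stood clear of the next. The level of PAS_chr1-3_0084 was 6.21 to 7.02 times that of PAS_chr3_0941 in the control libraries and 4.18 to 4.71 times in the ILV3 libraries. These ranges do not overlap; the difference between the subunits' changes was not tested. The other members of the start of replication were a licensing factor (PAS_chr4_0891), an initiation factor (PAS_chr1-1_0376) and an ATP-binding protein of the pre-replicative complex (PAS_chr3_0599). None of these 3 passed, with log2 fold changes from -0.19 to -0.01.

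The replicative polymerases and primase copy the genome. Of 10 members 1 fell and 9 did not pass. The member that fell was a primase subunit (PAS_chr4_0323), at 36.2, 35.1 and 35.2 TPM in the control and 30.8, 31.5 and 29.9 TPM in the ILV3 strain. Its values were separate by strain and the log2 change came to -0.20 (SE 0.05, adjusted p = 0.0118), a call lost with the replicate number as a block (adjusted p = 0.0505) and without control replicate 1 (0.0515; range 0.0079 to 0.0515). The other primase subunit (PAS_chr2-1_0512), at 29.6 ± 2.67 and 26.1 ± 1.48 TPM, did not pass (adjusted p = 0.0975). The polymerase alpha catalytic subunit (PAS_chr2-2_0349), at 38.3 ± 3.57 and 40.2 ± 1.94 TPM, and its B subunit (PAS_chr2-1_0500), at 22.3 ± 0.77 and 19.9 ± 1.45 TPM, did not pass either.

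The catalytic subunit of polymerase epsilon (PAS_chr1-3_0083), the main leading-strand enzyme in budding yeast, was at 8.13, 6.41 and 8.31 TPM in the control and 7.51, 7.63 and 7.57 TPM in the ILV3 strain. The ILV3 values lay inside the control range, with a 95% interval of the log2 fold change from -0.26 to 0.26. The catalytic subunit of polymerase delta (PAS_chr2-1_0163), which copies the lagging strand, was at 38.8, 34.2 and 38.9 TPM and at 32.9, 34.3 and 32.8 TPM. Its strains overlapped through control replicate 2, and its adjusted p of 0.0761 became 0.00849 without that library (log2 change -0.21; range 0.00849 to 0.221) and 0.0332 with median-ratio scaling. Without control replicate 2 the second primase subunit and the subunit that epsilon shares with a chromatin remodeller (PAS_chr2-1_0100) were also called lower (adjusted p = 0.0452, range 0.0452 to 0.33, and 0.0479, range 0.0479 to 0.4). In that setting 4 of the 10 were lower, beside 32.4% of all genes tested there. A BRCT-domain protein of the epsilon complex (PAS_chr4_0903) was at 43.4 ± 0.60 and 47.9 ± 3.04 TPM with separate values but an adjusted p of 0.0776, and was called higher with quantile normalization (0.00984; range 0.00984 to 0.277) and with median-ratio scaling (0.026). The remaining subunits of epsilon (PAS_chr3_0765) and delta (PAS_chr2-1_0395) had log2 fold changes of -0.06 and 0.01.

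Clamp loaders open the sliding clamp and set it on DNA, and of 8 members 1 rose and 7 did not pass. None of the 5 members described as replication factor C passed, and their log2 fold changes ran from -0.12 to 0.07. The most abundant, PAS_chr1-3_0030, was at 47.8, 48.6 and 54.4 TPM in the control and 53.7, 50.1 and 47.4 TPM in the ILV3 strain. PAS_chr1-4_0556 was at 36.4, 34.5 and 35.3 TPM and at 31.6, 33.6 and 32.5 TPM, which are separate but did not pass (adjusted p = 0.111). The other 3, PAS_chr2-1_0069, PAS_chr2-1_0619 and PAS_chr1-4_0269, overlapped between strains at means of 17.0 to 33.4 TPM. Of these, PAS_chr2-1_0619 was called lower without control replicate 2 (log2 change -0.17, adjusted p = 0.0353; range 0.0353 to 0.737). A subunit of the Ctf8-Ctf18 complex (PAS_chr1-1_0450), an alternative loader linked to sister chromatid cohesion in budding yeast, rose from 59.1 ± 2.97 to 67.5 ± 3.57 TPM (log2 change 0.19, adjusted p = 0.0255). That call was lost without control replicate 2 (0.0539) or 3 (0.0879) and without ILV3 replicate 1 (0.0839) or 3 (0.0904; range 0.00648 to 0.0904).

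**Figure D3:**
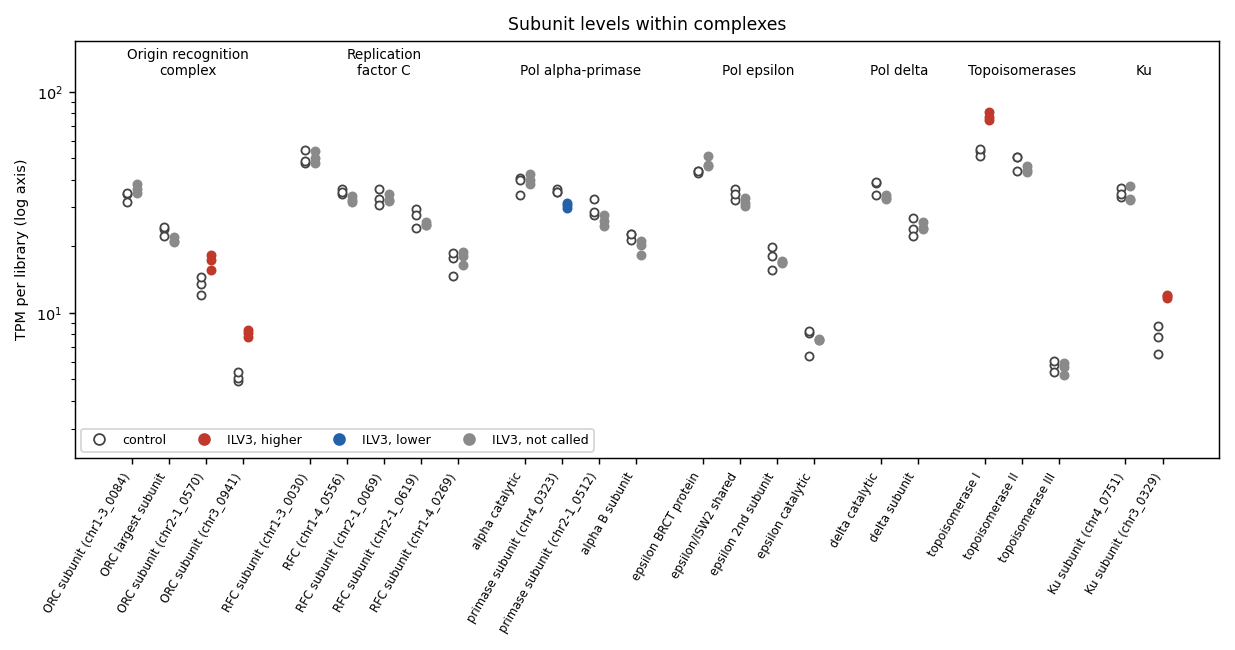
TPM in each library (vertical, log axis) for the subunits of 5 replication complexes, the topoisomerases and Ku, with open circles for the 3 control libraries and filled circles for the 3 ILV3 libraries, coloured by call. The called origin recognition subunits, topoisomerase I and 1 Ku subunit stand above their control values, while most other subunits overlap.

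Helicases and fork proteins unwind DNA or steady the fork. Of 8 members 1 rose and 7 did not pass, and the 7 had log2 fold changes from -0.05 to 0.14. The riser was a helix-hairpin-helix protein of repair and fork stability (PAS_chr2-1_0135), at 29.3, 23.8 and 29.1 TPM in the control and 33.02, 34.63 and 31.55 TPM in the ILV3 strain. Its log2 fold change of 0.27 (adjusted p = 0.0289) was no longer called without ILV3 replicate 1 (0.0703) or 2 (0.0929; range 0.00233 to 0.0929). A further 3 genes are described as replication proteins with no step given. Of these, PAS_chr2-1_0149 fell from 63.9 ± 4.65 to 53.4 ± 1.92 TPM (log2 change -0.25, SE 0.06, adjusted p = 0.00911).

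Topoisomerases relieve the twisting of DNA. Topoisomerase I (PAS_chr3_0242), which nicks 1 strand and acts in both replication and transcription, was at 53.85, 51.02 and 54.98 TPM in the control and 76.9, 81.4 and 74.1 TPM in the ILV3 strain. Every ILV3 library lay above every control library, and the transcript rose with a log2 fold change of 0.53 (SE 0.05, adjusted p = 5.51e-05). Topoisomerase II (PAS_chr3_0322), which passes a duplex through a double-strand cut, was at 48.5 ± 3.93 and 44.5 ± 1.38 TPM (adjusted p = 0.18) and was called lower without control replicate 2 (log2 change -0.19, adjusted p = 0.0147; range 0.0147 to 0.442). Topoisomerase III (PAS_chr1-1_0242), a partner of the Sgs1 helicase, was at 5.77 ± 0.33 and 5.62 ± 0.37 TPM (adjusted p = 0.836). The level of topoisomerase I was 9.06 to 9.41 times that of topoisomerase III in the control and 13.4 to 14.2 times in the ILV3 strain.

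Translesion synthesis and post-replication repair let a fork pass damaged DNA. Of 3 members 2 fell, beside 27.2% lower over all tested genes. The catalytic subunit of polymerase zeta (PAS_chr2-1_0697), which extends DNA past lesions, was at 21.5, 19.9 and 21.8 TPM in the control libraries and 12.1, 12.8 and 10.9 TPM in the ILV3 libraries. The strains were well separated, and the transcript fell by 43.3% of its control mean (log2 change -0.77, SE 0.08, adjusted p = 6.85e-05). The deoxycytidyl transferase described as its partner (PAS_chr2-1_0768) was at 37.1, 34.6 and 37.7 TPM and at 28.02, 26.71 and 25.51 TPM. It also fell with no overlap (log2 change -0.43, SE 0.06, adjusted p = 0.000409). The third gene, a factor of error-free post-replication repair (PAS_chr2-1_0568), was far more abundant at 221 ± 15.8 and 229.8 ± 3.05 TPM, and did not pass (adjusted p = 0.409).

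Break repair joins or recombines broken ends. DNA polymerase IV (PAS_chr3_0797), which fills gaps during end joining in budding yeast, was at 122, 121 and 126 TPM in the control and 58.8, 59.5 and 55.4 TPM in the ILV3 strain. No other member changed as much: it fell by 52.9% of its control mean, with a log2 fold change of -1.07 (SE 0.05, adjusted p = 2.96e-07). Ku, which holds broken ends and also acts at telomeres, has 2 subunits that differed in level and in outcome. PAS_chr3_0329 was at 7.75, 6.54 and 8.73 TPM in the control and 11.9, 12.0 and 11.7 TPM in the ILV3 strain, and rose (log2 change 0.58, SE 0.11, adjusted p = 0.0021). PAS_chr4_0751 was at 36.7, 33.3 and 34.6 TPM and at 32.9, 37.7 and 32.3 TPM, which overlap (adjusted p = 0.79). It was 3.96 to 5.10 times as abundant as the other subunit in the control and 2.76 to 3.14 times in the ILV3 strain, and the difference between their changes was not tested. A gene described without detail as a DNA repair protein (PAS_chr1-1_0025) fell from 45.7 ± 3.57 to 34.3 ± 1.198 TPM (log2 change -0.40, SE 0.07, adjusted p = 0.00106). RAD50, which tethers broken ends, the SMC-complex gene NSE1 and a gene of Mms22-dependent repair did not pass, with log2 fold changes from -0.08 to 0.19.

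**Figure D4:**
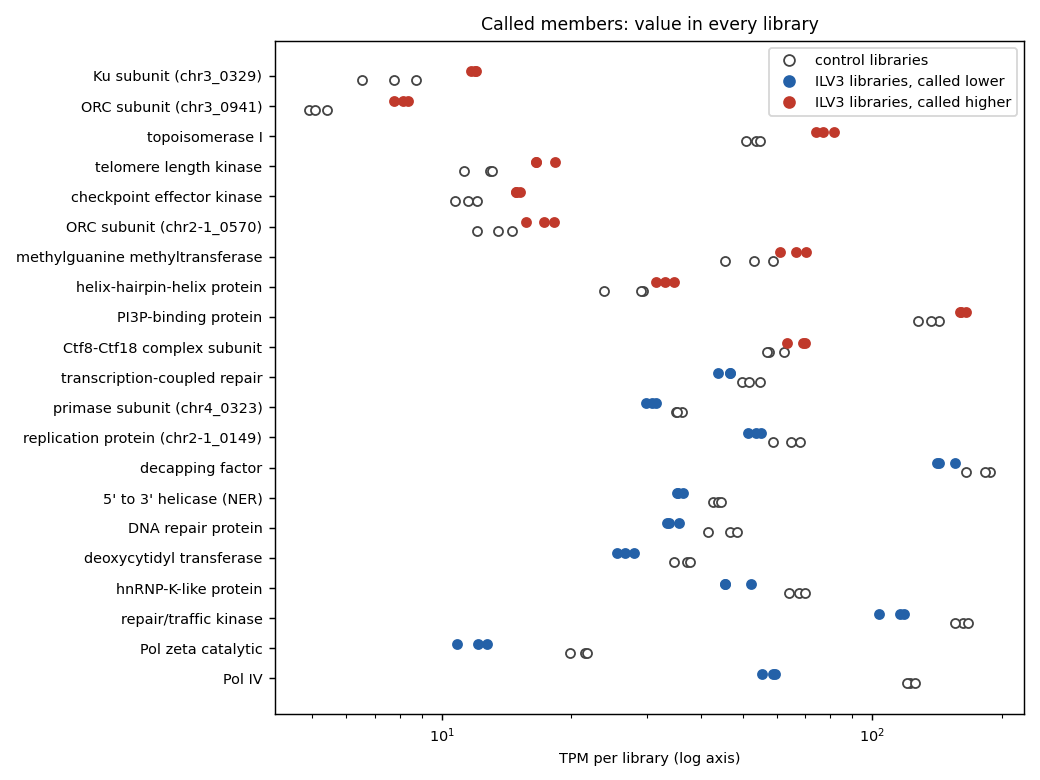
TPM in each library (horizontal, log axis) for the 21 members that were called, ordered by change, with open circles for the 3 control libraries and filled circles for the 3 ILV3 libraries (red higher, blue lower). For all 21 genes the circles of the strains are separate, and polymerase IV at the bottom and polymerase zeta above it are the farthest apart.

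Nucleotide excision repair cuts out bulky lesions. Of 6 members 2 fell and 4 did not pass, beside 27.2% lower over all tested genes. A 5' to 3' helicase that also acts in transcription (PAS_chr2-1_0797) was at 42.7, 43.8 and 44.6 TPM in the control and 36.3, 35.5 and 35.3 TPM in the ILV3 strain. It fell with narrow spread in both strains (log2 change -0.28, SE 0.05, adjusted p = 0.00138). A gene of transcription-coupled repair (PAS_chr2-1_0629) fell from 52.2 ± 2.59 to 45.8 ± 1.69 TPM (log2 change -0.19, adjusted p = 0.0233). Its call was lost with the replicate number as a block (0.0542), with quantile normalization (0.0567), and without control replicate 1 (0.0957), control replicate 3 (0.0524) or ILV3 replicate 3 (0.0868), within a range of 0.0121 to 0.0957. A TFIIH component (PAS_chr4_0061) had by far the widest interval of any member, from -0.49 to 0.98. It was at 49.3, 92.6 and 49.3 TPM in control replicates 1 to 3 and at 72.8, 112.9 and 45.7 TPM in ILV3 replicates 1 to 3. Replicate 2 was the highest library in both strains.

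Mismatch repair, base excision and direct reversal held 5 members, of which 1 rose. Mismatch repair genes whose descriptions mention meiosis were left out by the rule, and some of them are given under the other observations. The member that rose was the methyltransferase that takes methyl groups off guanine (PAS_chr2-2_0254). It was at 58.8, 45.6 and 53.2 TPM in the control and 61.2, 70.2 and 66.5 TPM in the ILV3 strain. The nearest values of the strains were close, and the call (log2 change 0.33, SE 0.09, adjusted p = 0.0154) was lost without ILV3 replicate 2 (0.0532; range 0.00381 to 0.0532). A pair of endonucleases for abasic sites, which cut where a base is missing, had log2 fold changes of -0.02 and 0.02. A base excision N-glycosylase (PAS_chr4_0492) had values separate by strain and a log2 fold change of -0.20, but did not pass (adjusted p = 0.0616). Without control replicate 2 it was called lower (log2 change -0.26, adjusted p = 0.018).

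Damage signalling held 1 rise and 1 fall among 3 members. A serine/threonine kinase described as a damage checkpoint effector (PAS_chr4_0585) was at 11.5, 10.8 and 12.1 TPM in the control and 14.9, 15.2 and 14.9 TPM in the ILV3 strain. It rose with no overlap (log2 change 0.36, SE 0.08, adjusted p = 0.00425). A kinase whose description spans vesicle traffic and repair (PAS_chr2-1_0219) was at 162.7, 155.7 and 167.1 TPM and at 115.9, 118.3 and 103.8 TPM, and fell (log2 change -0.52, SE 0.06, adjusted p = 9.65e-05).

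Of the 6 members grouped under telomeres by their descriptions, 2 were higher, 1 was lower and 3 did not pass. A protein kinase of telomere length control (PAS_chr1-3_0143) was at 12.9, 11.3 and 13.1 TPM in the control and 16.6, 18.3 and 16.6 TPM in the ILV3 strain. It rose with a log2 fold change of 0.44 (SE 0.09, adjusted p = 0.00251). A phosphatidylinositol 3-phosphate-binding protein linked to repression near telomeres (PAS_chr2-1_0229) rose from 136 ± 7.40 to 162 ± 2.75 TPM (log2 change 0.25, adjusted p = 0.00257). An RNA-binding protein resembling hnRNP-K (PAS_chr1-4_0045), placed here by its subtelomeric location, fell from 67.2 ± 2.89 to 47.8 ± 3.94 TPM (log2 change -0.49, SE 0.07, adjusted p = 0.00033). The reverse transcriptase subunit of telomerase (PAS_chr2-1_0373), which copies telomere repeats and was named after its values were seen, had a log2 fold change of -0.08 (adjusted p = 0.456).

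None of the 4 members for mitochondrial DNA passed, with log2 fold changes from -0.13 to 0.12, and the mitochondrial polymerase gamma (PAS_chr3_0703) had the lowest level of all members at 3.09 ± 0.28 and 3.44 ± 0.26 TPM. A further 3 members matched the rule by wording while their known work lies elsewhere. A decapping factor of mRNA decay that binds topoisomerase II (PAS_chr2-2_0378) fell from 179 ± 11.8 to 146.9 ± 8.12 TPM (log2 change -0.28, adjusted p = 0.00436). A SUN family protein (PAS_chr2-2_0064), whose relatives in budding yeast act in the cell wall, was the most abundant member at 470.8 ± 39.9 and 469 ± 17.9 TPM and did not pass. DNA polymerase phi (PAS_chr2-1_0611), whose counterpart in budding yeast acts in ribosomal RNA synthesis, was at 83.5 ± 3.14 and 81.8 ± 1.93 TPM.

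Genes of the same processes that the rule did not reach were counted from lists matched to the descriptions. Ribonucleotide reductase makes the deoxynucleotides that polymerases use, and its 3 genes lay outside the rule because their descriptions spell the enzyme with diphosphate. The small subunit (PAS_chr4_0197) was at 150.6, 135.3 and 159.9 TPM in the control and 113.5, 115.9 and 111.9 TPM in the ILV3 strain. It fell with a log2 fold change of -0.38 (SE 0.06, adjusted p = 0.000901). The more abundant large subunit (PAS_chr1-1_0282) was at 172, 146 and 172 TPM and at 131, 138 and 129 TPM, and fell by 0.29 on the log2 scale (SE 0.07, adjusted p = 0.00645). Both lay wholly below the control, while the other large subunit gene (PAS_chr2-1_0209) was at 6.23 ± 0.76 and 6.34 ± 0.18 TPM (adjusted p = 0.868). The sources used here do not say how reads were shared between the large subunit genes.

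Of 26 other replication and repair genes, 4 rose and 3 fell, beside 22.1% and 27.2% of all tested genes. The sliding clamp PCNA (PAS_chr3_0233), the ring that holds polymerases on DNA, was at 146, 133 and 132 TPM in the control and 137, 132 and 145 TPM in the ILV3 strain, which overlap. The 4 GINS subunits, the MCM helicase component and the DNA ligases did not pass. A post-replication repair gene (PAS_chr2-1_0274) fell from 20.2 ± 1.33 to 14.5 ± 0.96 TPM (log2 change -0.46, adjusted p = 0.00138). A subunit of the checkpoint complex that pauses forks (PAS_chr2-2_0013) fell from 7.75 ± 0.82 to 5.53 ± 0.27 TPM (log2 change -0.42, adjusted p = 0.014), a call lost without control replicate 1 (0.0592; range 0.00278 to 0.0592). A subunit of replication protein A (PAS_chr1-1_0113), which coats single-stranded DNA, rose by 0.15 on the log2 scale (adjusted p = 0.0375), a weak call. It was lost with the replicate number as a block (0.0939), without a mean-variance trend (0.0546) and without any 1 library other than ILV3 replicate 3 (0.0582 to 0.135, which is the upper end of its range from 0.00284). Larger rises were those of a mitochondrial single-stranded DNA-binding protein (PAS_chr3_0862, log2 change 0.22, adjusted p = 0.0124) and a G1 to S transcription factor (PAS_chr2-1_0508, 0.29, 0.0158). A double-strand break repair gene (PAS_chr4_0087) rose by 0.33 (adjusted p = 0.0453), with strains that overlapped. How these larger rises fared in the other settings is not given.

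Histones package new DNA, and cohesin and condensin hold and fold chromosomes. Over all tested genes 49.3% were called. Of 4 core histone genes 1 fell, an H2A gene (PAS_chr2-1_0429) that went from 3616 ± 131 to 3113 ± 195 TPM (log2 change -0.22, adjusted p = 0.0101). The descriptions give each histone gene an identical or nearly identical copy, and how reads were shared between copies is not known. None of 8 cohesin and condensin genes passed with limma, and 0 had an unadjusted p under 0.05. Of 3 genes of deoxynucleotide supply 1 rose.

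Of 25 cyclin and checkpoint genes 7 were higher and 12 lower, beside 22.1% higher and 27.2% lower over all tested genes. A G1/S cyclin (PAS_FragB_0046) was at 103.7, 80.02 and 94.16 TPM in the control and 55.4, 62.1 and 55.9 TPM in the ILV3 strain. It fell with a log2 fold change of -0.66 (adjusted p = 0.000323). A G1 cyclin (PAS_chr1-4_0054), which acts before replication starts, fell from 131 ± 10.3 to 85.8 ± 3.29 TPM, and a Pho85 cyclin of cell cycle entry (PAS_chr2-1_0092) fell from 229.98 ± 26.2 to 137 ± 2.26 TPM. Of 3 B-type cyclins 2 (PAS_chr1-4_0440 and PAS_chr2-1_0102) fell by 0.51 and 0.38 on the log2 scale. The largest rise was that of another Pho85 partner (PAS_chr1-1_0097), from 208.6 ± 1.51 to 322.7 ± 9.64 TPM. A cyclin-dependent kinase (PAS_chr3_0214) and a regulatory subunit of such kinases (PAS_chr2-2_0298) also rose, by 0.18 and 0.32 on the log2 scale. So did a kinase that activates them (PAS_chr1-4_0363, 0.20), a checkpoint kinase (PAS_chr2-2_0040, 0.20) and a kinetochore checkpoint protein (PAS_chr2-1_0515, 0.38). The adjusted p of these genes ran from 0.000376 to 0.0261, and their calls in the other settings are not given. The list mixes cell cycle cyclins with those of transcription and phosphate signalling, and no test of the list was made. It also holds the fork-pausing checkpoint subunit (PAS_chr2-2_0013), which is counted among the replication and repair genes above as well.

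**Figure D5:**
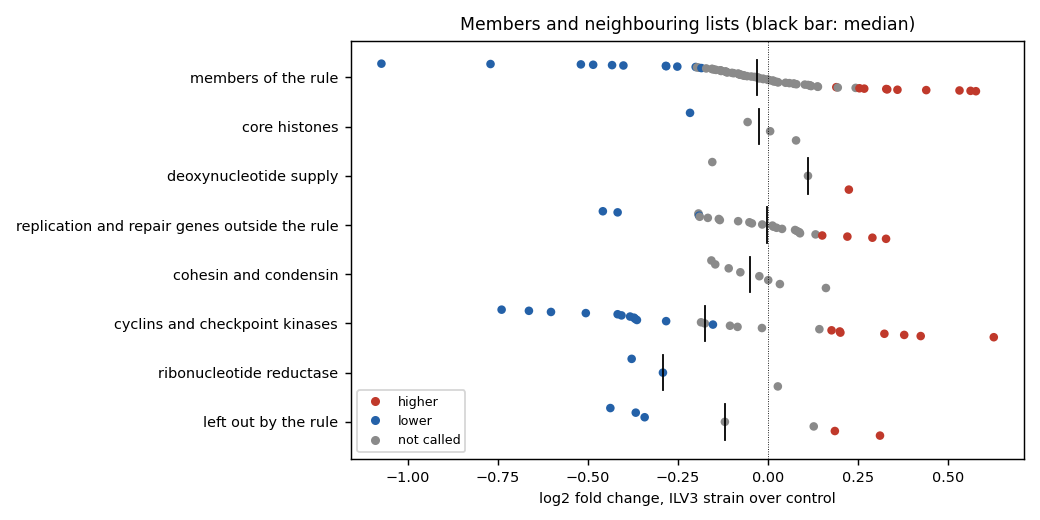
Log2 fold change of the ILV3 strain over the control (horizontal) for the members and for 7 neighbouring lists, 1 point per gene, red for called higher, blue for called lower and grey for not called; the black bar is the median of a list. The members centre on -0.03, while the 3 ribonucleotide reductase genes centre on -0.29 and the cyclin and checkpoint list on -0.18. PAS_chr2-2_0013 is drawn both in that list and among the replication and repair genes outside the rule.

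The authors' deposited table gives its own comparison of the strains. In the authors' deposited table p is under 0.05 for 26 members, against 54.7% of all genes, and the 26 include all 21 members called here, each with the same sign. The other 5 in the authors' deposited table comprise 2 that are higher and 3 that are lower.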

How the data were processed

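Messenger RNA libraries were made with a stranded ligation kit, per the labels' protocols. HISAT2, TopHat2 and DESeq2 are named, without versions, per the submitters' processing notes; the genome build, annotation and counter were not given in the sources used here. Deposited values are named FPKM but sum to 1000000 per library and were treated as TPM. The authors' deposited log2 fold change and p-value were only set beside the fit; whether that p-value is adjusted is not stated. None of the IDs (0 of 5030) was found in the reference gene table, so members carry locus tags and the descriptions of the table.

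The test kept genes averaging at least 1 TPM (5025 of 5030). Values were taken as log2(TPM + 1), which understates changes of low genes, and fitted across all genes with limma 3.58.1 (R 4.3.3, with a mean-variance trend), both strains in 1 fit, Benjamini-Hochberg adjustment and a threshold of 0.05. The fit was tested on simulated data, where 7 of 4823 unchanged genes were called. Of 50 genes shifted by 0.3 on the log2 scale 23 were called, and of 50 shifted by 0.5, 42. All 50 were called at a shift of 1. Only upward shifts were simulated, and in a far smaller share of genes than the 49.3% called in the data. The adjusted p depends on that share, so these rates need not hold for the real calls. The simulated noise was independent between genes and libraries, so shifts shared across a library were not covered. Depth is unknown, so no counting interval was computed. Fold changes are the ILV3 strain over the control; errors are SD over 3 libraries or SE of the fit.

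The members and lists were chosen with earlier results of these data known, and role groups were read from the descriptions. Named genes were the called members of each role group (up to 3 each way), those changed at least 2-fold, all subunits of the main replication complexes and topoisomerases, the 5 most abundant members and ILV3. Other members given by name (such as the uncalled Ku subunit, TFIIH and polymerases gamma and phi) and genes of the neighbouring lists were named after their values were seen. The replicate numbers come from the sample titles, which do not say what a number shares. The fit was kept without the block, as designed. Deviations from the strain means correlated across genes with r of 0.223, 0.126 and 0.209 for same-numbered libraries. These values lie above the pairing limit of 0.1. Across the members alone they were -0.234, 0.585 and 0.417, and control replicate 1 with ILV3 replicate 3 gave 0.593. The numbers may thus pair the libraries, but this is not settled. Printed p-values and counts are of the fit without the block unless the block is named. The blocked fit is printed beside each call it changes among the genes followed over all settings. Alternatives were other pseudocounts, filters, scalings, variance models, the block, each library left out, and other member rules. A result on a gene that the rule left out is not reported here.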

Additional observations from a re-analysis of the deposited data

How the results depend on the processing

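Over 15 other settings of the fit, the count of members called ranged from 7 to 12 higher and from 9 to 21 lower, against 10 and 11. The share of all tested genes called in these settings ran from 42.2% to 55.2%, against 49.3%. Leaving out 1 library at a time gave 9 to 21 lower members, the 21 without control replicate 2, where 10 members not called with all 6 libraries were lower and 20 of the 21 calls remained. Its part in the members' low values was not tested. Without the genes matched by telomere, recombination or DNA damage terms alone, 6 of 63 members were higher and 10 lower. With the 7 genes left out by the rule, 12 and 14 of 83 were called. Both stand beside 22.1% higher and 27.2% lower over all tested genes.

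Of the 21 called members, 15 kept their call in every setting that tested them, 6 higher and 9 lower; with the filter at a mean of 10 TPM, 8 members, among them the Ku and origin recognition subunits with the largest rises, were not tested. The replicate block left 10 higher and 9 lower members, with 44.0% of all tested genes called in that setting. Beside the primase, transcription-coupled repair and replication protein A genes, it changed no other call of the named genes followed over all settings. No call of these genes changed direction. The cause was not tested in any of these cases. Both strains have 3 libraries and unknown depth, which limits the weakest members.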

Other observations

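The rule left out 7 genes for words on meiosis, histones or ubiquitin, and 5 of these differed between the strains, 2 higher and 3 lower, beside 22.1% higher and 27.2% lower over all tested genes. A gene of mismatch repair and meiotic crossing-over (PAS_chr3_0739) was at 17.5, 17.4 and 17.9 TPM in the control libraries and 12.9, 13.4 and 11.9 TPM in the ILV3 libraries, and fell with limma (log2 change -0.44, SE 0.08, adjusted p = 0.0012). Another mismatch repair gene, PAS_chr2-1_0165, rose from 11.7 ± 0.60 to 14.7 ± 0.47 TPM (log2 change 0.31, adjusted p = 0.00905).

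By their locus tags 29 of the 76 members lie on chromosome 2, which is 2.18% of its 1328 genes, against 1.24%, 1.27% and 1.37% on chromosomes 1, 3 and 4. Among the members 2 pairs have consecutive tags. The polymerase epsilon catalytic subunit and the most abundant origin recognition subunit form 1 pair, and neither was called; the rDNA helicase and the phosphatidylinositol 3-phosphate-binding protein form the other, and the second of these rose.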
